A study of Oryza sativa with 32 samples.

Results

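Rice loci with 5 or more gene models were described from the MSUv.7 annotation that was deposited with an RNA-seq study of root responses to aluminum (Al). A gene model is 1 transcript structure of a locus, given in the annotation as a start, a stop and a strand. Members were the loci with at least 5 models whose representative model, the 1 model per locus chosen to stand for it, was not marked as a transposable element (TE). This rule gave 344 loci among 55986 loci in all and 39049 non-TE loci, or 0.881% of the latter. They held 2035 gene models, 4.15% of the 49066 models of non-TE loci. The loci they were compared with were the 32809 non-TE loci with 1 model.

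The study sampled roots of Azucena (Al-resistant, *tropical japonica*), IR64 (Al-sensitive, *indica*) and 2 reciprocal near-isogenic lines, each after 4 hours with 80 μM Al3+ activity or without Al, in 4 biological replicates for each of 8 groups (32 libraries). The line AZU[IR64121] carried an IR64 segment on chromosome 12 in the Azucena background, and IR64[AZU12.1] carried an Azucena segment of that region in the IR64 background. The file analyzed here held positions and marks of gene models and no value of any library, so nothing below compares genotypes or treatments, and each number is a count or a length over the loci of 1 annotation. It came from the genome of 1 reference rice, and how many of these models are used in roots of the 4 genotypes was not tested.

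A plant locus gives several transcripts when RNA polymerase starts at different promoters, when introns are spliced in more than 1 way, or when the transcript is cut and polyadenylated at different sites. Such transcripts can differ in the protein they encode or in the untranslated ends that affect stability and translation. The annotation showed the outer ends of each model and not its exons, so alternative starts and ends could be measured and alternative splicing inside shared ends could not.

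Most members sat close to the minimum of the rule. There were 185 loci with 5 models (53.8% of members) and 82 with 6 (23.8%), then 37 with 7, 23 with 8, 6 with 9, 4 with 10, 4 with 11, 2 with 12 and 1 with 13. Just outside the rule, 517 non-TE loci had 4 models, 1396 had 3 and 3983 had 2. The number of loci fell at each step from 1 to 9 models, with no gap at the minimum of 5.

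**Figure D1:**
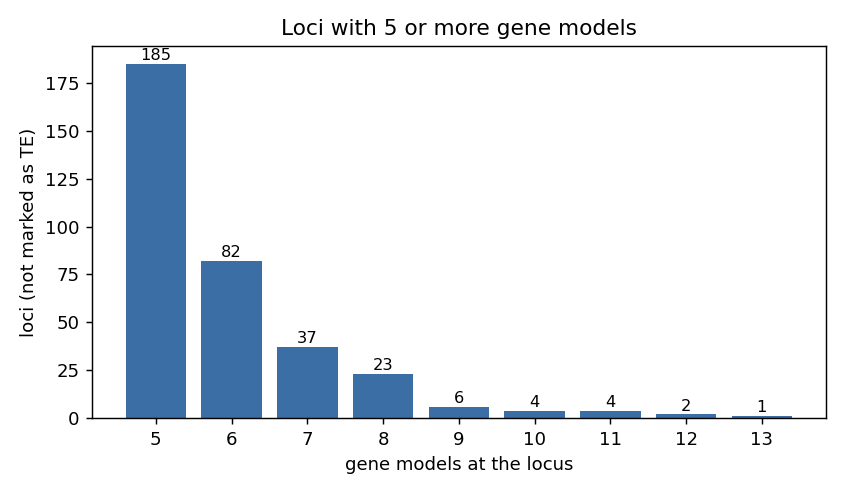
Number of non-TE loci (vertical axis) by number of gene models at the locus (horizontal axis), for loci with 5 or more models. The bars fall from 185 loci with 5 models to 1 locus with 13.

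The locus with 13 models, LOC_Os03g05390 (chr3:2651929-2661787 of MSUv.7, minus strand), was described as a citrate transporter, a class of proteins that move organic acids across membranes. Its models shared 1 position at the 3′ end and fell into 2 sets at the 5′ end. The upstream set held 6 models of 9756 to 9859 bp and the downstream set held 7 models of 3171 to 3423 bp. The representative model, of 3423 bp, belonged to the downstream set.

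Of the 2 loci with 12 models, 1 had widely spaced ends and the other had nearly fixed ends. LOC_Os12g16350, described as an enoyl-CoA hydratase/isomerase (a family of fatty acid and amino acid breakdown), spanned 14730 bp with a 5′ difference of 6710 bp and a 3′ difference of 1682 bp among its models. LOC_Os10g40030, a short chain dehydrogenase/reductase, spanned 3381 bp, and its 5′ and 3′ ends differed by at most 40 and 19 bp. Its 12 models had only 6 different pairs of start and stop.

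The 4 loci with 11 models had different products. LOC_Os01g28680 was described as a WD domain protein, a scaffold class, and its 3′ ends spread over 4863 bp. OsFBO21 (LOC_Os09g27660), an F-box protein of the ubiquitin pathway, had 3′ ends spread over 8125 bp, mostly through its shortest model, of 1552 bp. LOC_Os12g39420, a nucleobase-ascorbate transporter, had 1 shared 3′ end and 5′ ends spread over 1151 bp. LOC_Os05g40270 had no named product. Its 5′ ends spread over 7413 bp, mostly through its shortest model, of 2097 bp, and its 3′ ends over 2517 bp. Thus 3 of these 4 loci had outermost ends several kb apart, and which end had the wider spread differed among them.

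Loci with 10 models included LOC_Os02g57410, an OTU-like cysteine protease (a class that removes ubiquitin), whose 5′ ends were identical and whose 3′ ends differed by 74 bp. LOC_Os03g48600, with a domain of unknown function, had 1 shared 3′ end and 5′ ends spread over 857 bp. LOC_Os02g12480, described only as an expressed protein, had models that differed by 3 bp at the 5′ end and 20 bp at the 3′ end. A large number of models was therefore found with wide and with narrow spread of the ends.

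Members were long loci. Measured between the outermost positions of its models, a member had a median length of 5068 bp, with quartiles of 3820 and 6776 bp and a range of 1169 to 33199 bp. The median of the 1-model loci was 1791 bp, or 1939 bp for the 30280 of them marked as expressed. Of the 1-model loci, 11.0% were longer than the median member. In the other direction, 2.62% of members (9 loci) and 54.3% of 1-model loci were shorter than 2000 bp.

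Several definitions of length gave the same order. The representative model of a member had a median of 4572 bp and its longest model a median of 5058 bp, close to the 5068 bp of the whole locus. The median was 4024 bp for 2 models, 4387 bp for 3, 4630 bp for 4, 4708 bp for 5 and 5286 bp for 6 or more. The step from 1 to 2 models, from 1791 to 4024 bp, was wider than the whole range from 2 models to 6 or more. Among loci with a product named in the description, the medians were 5156 bp for 278 members and 2565 bp for 17966 loci with 1 model. Among loci called only expressed protein, they were 4360 bp for 66 members and 1112 bp for 12643 loci with 1 model.

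**Figure D2:**
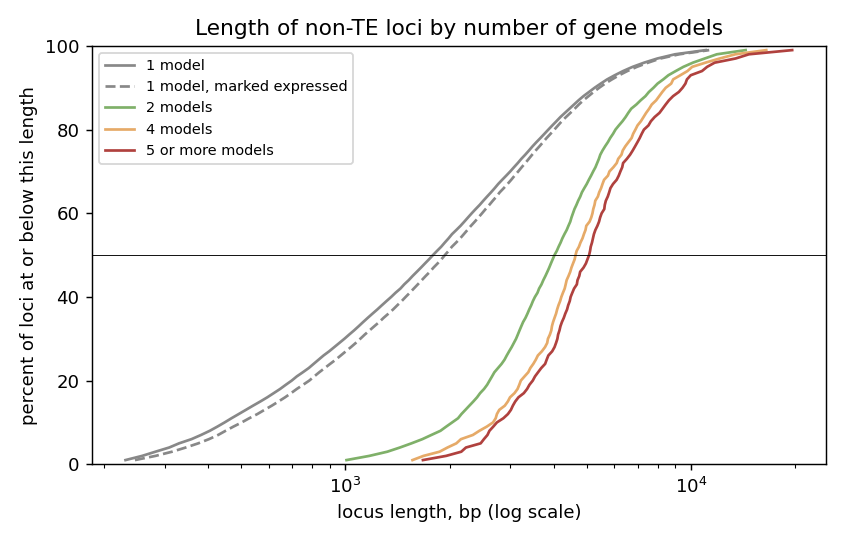
Cumulative percent of non-TE loci (vertical axis) by locus length in bp on a log axis (horizontal axis), for loci with 1 model, with 1 model and the expressed mark, with 2, with 4 and with 5 or more models. The curve of members crosses 50% at 5068 bp and that of all 1-model loci at 1791 bp.

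The 2 longest members were serine carboxypeptidase homologues, a family of peptide-cleaving and acyl-transferring enzymes. OsSCP28 (LOC_Os05g18604, chr5:10757560-10790758, minus strand) spanned 33199 bp. Its 6 models began within 14 bp of each other and each ended at its own position, which gave model lengths from 1017 to 33199 bp and a 3′ difference of 32182 bp. OsSCP62 (LOC_Os11g27329, chr11:15706797-15738377, plus strand) spanned 31581 bp. Its 5′ ends also lay close together, within 48 bp, and its 3′ ends took 4 positions spread over 30907 bp. It was the only member with a TE mark on any model, and 1 of its 6 models, not the representative, carried it.

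Elsewhere in the family, members were shorter. Of 56 non-TE loci named as serine carboxypeptidase homologues, 4 were members, and the other 2, OsSCP9 and OsSCP10, spanned 5212 and 7227 bp (these 2 were picked after their values were seen). In OsSCP10 the 3′ ends were identical and the 5′ ends spread over 3562 bp.

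The third longest member was LOC_Os06g28194, an expressed protein of 21547 bp with 5 models and 3′ ends spread over 13810 bp. At the other extreme, LOC_Os10g25570 (1169 bp) and LOC_Os03g23010 (1343 bp) had no named product. LOC_Os03g06850 (1371 bp) was a B3 DNA binding domain protein, a plant class of transcription factors. All 3 of the shortest members had 5 models.

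Members lay on all 12 chromosomes, with counts from 12 on chromosome 9 to 53 on chromosome 3. Per 1000 non-TE loci there were 8.81 members over the whole annotation. Chromosomes 2 and 3 had the highest rates, 12.3 (51 loci) and 12.08 (53 loci). Together they held 30.2% of members and 21.8% of non-TE loci. Chromosomes 7 and 9 had the lowest, 4.58 (14 loci) and 5.31 (12 loci). Chromosome 12, which carries the introgressed segments of the near-isogenic lines, had 20 members and a rate of 8.20, and the unplaced sequences had 0 members among their 185 non-TE loci.

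The order of chromosomes depended in part on the minimum of 5. With 4 or more models the rate was highest on chromosome 2 (29.5 per 1000 non-TE loci) and lowest on chromosome 11 (15.5), with chromosome 7 next (15.7). Median member length ranged from 3502 bp on chromosome 9 to 5950 bp on chromosome 5, and on each chromosome it was above the median of 1-model loci, which ranged from 1557 to 1969 bp. Members were split evenly over the strands, with 170 on the plus and 174 on the minus strand. They lay somewhat nearer to chromosome ends, with 30.8% (106 loci) within the outer 10% of chromosome length at either end, against 24.0% of 1-model loci and 24.8% of all non-TE loci.

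**Figure D3:**
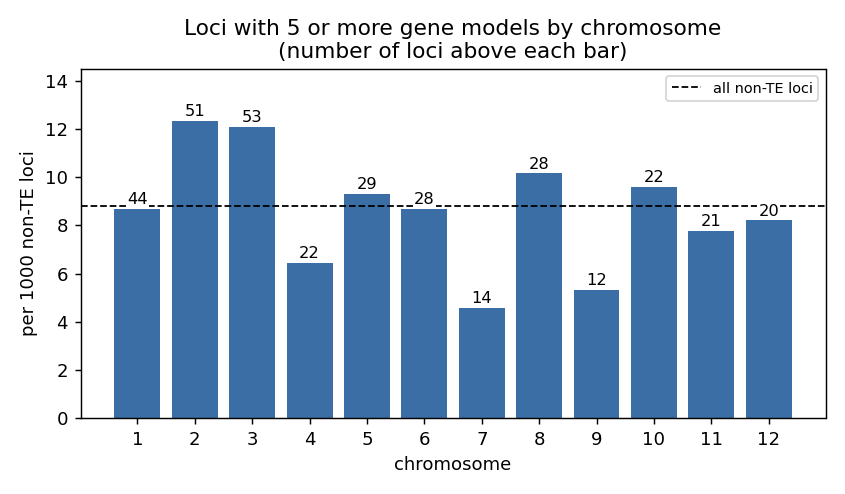
Members per 1000 non-TE loci (vertical axis) on each of the 12 chromosomes (horizontal axis), with the number of members above each bar and a dashed line at 8.81 for all non-TE loci. Chromosomes 2 and 3 reach 12.3 and 12.08 and chromosome 7 has 4.58.

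Each of the 344 members carried the expressed mark, on its representative and on every 1 of its models. The mark was on 92.3% of the 1-model loci (30280 of 32809), and on 98.2% of those once loci described only as expressed or hypothetical protein were left out. All loci with 2, 3 or 4 models carried it too, so the mark did not set members apart from other loci with several models. How the mark and the additional models were made is not given in the sources used here. The mark says nothing of the level of expression in roots.

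The spread of model ends ranged from 0 bp to many kilobases, and 174 of the 344 members (50.6%) had a difference over 1000 bp at 1 end or both. The 5′ end of a model was its start on the plus strand and its stop on the minus strand, and the difference at an end was the distance between the outermost positions among the models of a locus. At the 5′ end the median difference was 54 bp, with quartiles of 1 and 1035 bp and a maximum of 9681 bp. At the 3′ end the median was 18 bp, with quartiles of 0 and 1385 bp and a maximum of 32182 bp. These medians were 1.43% and 0.469% of the locus length.

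Sorted by size, the 5′ differences were 0 bp in 81 members, 1 to 10 bp in 43, 11 to 100 bp in 64, above 100 and up to 1000 bp in 69 and over 1000 bp in 87. The 3′ differences were 0 bp in 135 members, 1 to 10 bp in 29, 11 to 100 bp in 43, above 100 and up to 1000 bp in 30 and over 1000 bp in 107. The 3′ ends were thus more often identical and also more often over 1000 bp apart, with 102 members (29.7%) between, against 176 (51.2%) at the 5′ end. The 5′ difference was the larger in 171 members and the 3′ difference in 141. Both exceeded 1000 bp in 20 members.

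The difference between outermost ends cannot shrink as models are added to a locus, and part of its rise with the number of models follows from how it is defined. It exceeded 1000 bp at the 5′ end in 6.00% of loci with 2 models, 13.7% of those with 4 and 25.3% of members. At the 3′ end the shares were 10.3%, 27.1% and 31.1%. Members with exactly 5 models had medians of 20 bp (5′) and 2 bp (3′), while loci with 4 models had 21 and 11 bp and members with 6 or more had 107 and 65 bp. The medians therefore did not rise at each step, and the 3′ median was lower with 5 models than with 4. For pairs of models the median difference within a locus was 0 bp in 165 members at the 5′ end and in 229 at the 3′ end. These included the members whose ends were all identical, and the outermost ends differed in 84 of the 165 and 94 of the 229.

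**Figure D4:**
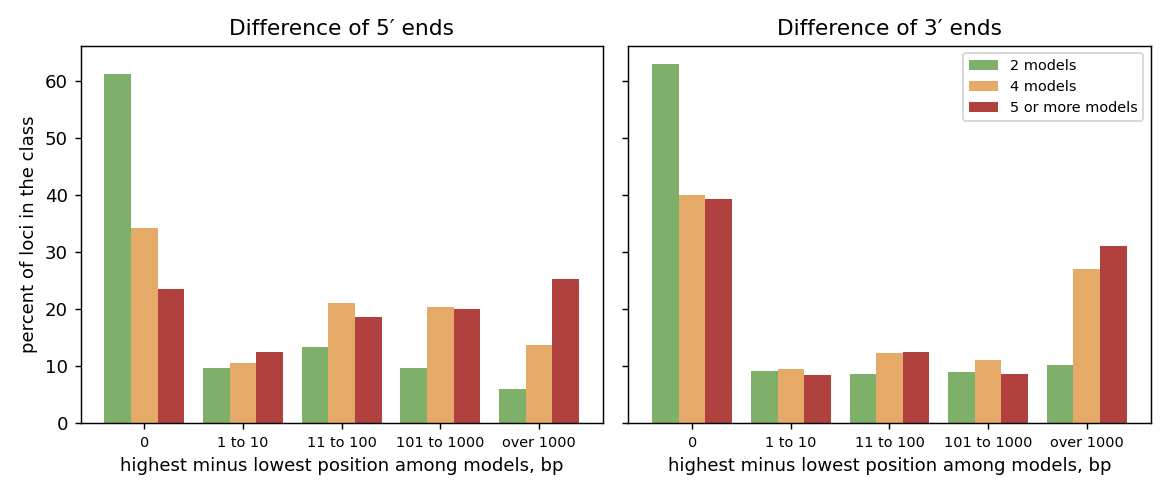
Percent of loci (vertical axes) by the difference between the outermost 5′ ends (left) and 3′ ends (right) of their models in bp (horizontal axes), for loci with 2, with 4 and with 5 or more models. In members the class over 1000 bp holds 25.3% of loci at the 5′ end and 31.1% at the 3′ end.

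To see how the distant ends were arranged, ends of a locus were put in separate clusters where more than 1000 bp lay between neighbouring positions. At the 5′ end, 268 members had 1 cluster, 68 had 2 and 8 had 3 or more. At the 3′ end, 243 members had 1 cluster, 86 had 2 and 15 had 3 or more. In 187 members there was 1 cluster at both ends, and in 20 there was more than 1 at both.

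Where there were 2 clusters, the smaller was usually a single model. That was so in 47 of the 68 members at the 5′ end and in 61 of the 86 at the 3′ end. The other 21 and 25 members had at least 2 models in each cluster, as in the citrate transporter LOC_Os03g05390. The representative model lay in the upstream 5′ cluster in 51 of the 68 members and in the downstream cluster in 17, that locus among them.

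The widest 5′ difference, 9681 bp, was in a second citrate transporter, LOC_Os10g31040 (chr10:16225411-16238853, plus strand). Of its 6 models, 2 began within 2 bp of each other at the upstream end and 4 began at 1 position 9679 bp or more downstream, and all 6 had the same 3′ end. Its representative model, of 3762 bp, was again a downstream one. Both loci were thus drawn with a distant upstream start and a fixed 3′ end, although they lie on different chromosomes and strands.

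Next in 5′ difference were LOC_Os02g55770, an expressed protein (9510 bp), and LOC_Os05g18294, a SEC14 lipid-transfer family protein (8118 bp). In both, some models shared no position with other models of the same locus. At LOC_Os02g55770, 2 models of 2093 bp lay 997 bp away from 2 others of 8514 bp. Such separate models were present in 6 members (1.74%), in 6 loci with 4 models (1.16%), in 1 with 3 and in 0 of 3983 with 2. The other members of this kind were LOC_Os05g40270, LOC_Os02g26294, LOC_Os08g30020 (a membrane protein) and LOC_Os10g39010 (a receptor-like kinase of the CrRLK1L class), the last 3 named after their values were seen.

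Following the carboxypeptidases, the widest 3′ difference was 15998 bp in LOC_Os12g02660, an expressed protein with 8 models and 1 shared 5′ end. Its longest model had 21069 bp, and the locus overlapped 3 further annotated loci. Overlap with another locus was seen in 30 members (8.72%), on the opposite strand in 27 and on the same strand in 3. It was seen in 3.43% of 1-model loci and in 7.45% of loci with 2 to 4 models. Where loci overlap on opposite strands, reads can be assigned to either gene unless strand is used. For overlaps on the same strand, strand does not tell the genes apart. The study made strand-specific libraries, and whether strand was used in counting is not given in the sources used here.

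At the other end of the scale, all models shared 1 start and 1 stop in 31 members (9.01%), compared with 10.6% of loci with 4 models and 37.3% of those with 2. These models can differ only in what lies between their ends. The member with the most such models was LOC_Os08g44860 (chr8:28173231-28181743), an aminopeptidase with 8 models of 8513 bp each. OsIAA6 (LOC_Os01g53880), an Aux/IAA repressor of auxin responses, had 7 models of 4006 bp. LOC_Os01g55890 (an amino acid kinase), LOC_Os02g57280 (a CBS domain membrane protein) and LOC_Os03g09220 (described as a stage II sporulation protein E) had 6 each.

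Over all members, the 2035 models had 1184 different pairs of start and stop, or 58.2% of models, against 67.5% for loci with 4 models and 81.4% for loci with 2. Every model had its own pair in 27 members. The shortest model was 79.2% of the longest in the median member and 99.7% in the median locus with 2 models. The representative model was a longest model of the locus in 49.7% of members and carried the model number 1 in 61.0%. For loci with 2 models these shares were 78.3% and 80.2%. At 48 members (14.0%) a number was missing in the series of model numbers.

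Descriptions of members named a product more often than those of 1-model loci. Only 66 members (19.2%) were described as expressed protein and nothing more, against 38.5% of 1-model loci and 41.8% of those marked as expressed. Loci with 2, 3 and 4 models, of which 19.5%, 17.4% and 16.8% were described only as expressed or hypothetical protein, were like members in this. None of the 2333 non-TE loci described as hypothetical protein was a member. Once a product was named, the rate was 12.07 members per 1000 non-TE loci. All models of a locus carried 1 description, so the descriptions do not tell the models apart.

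The words used most often after removal of generic terms were finger (17 members), zinc (16), kinase (14), precursor (14), subunit (10), factor (9), kinases (9) and transporter (9). The word finger was in 4.94% of members and 2.05% of 1-model loci. Subunit, which marks parts of protein complexes, was in 2.91% and 1.19%. Precursor, a word for secreted or processed proteins, was in 4.07% of members and 5.26% of 1-model loci and so went the other way. F-box was in 1.45% and 1.88%. These shares count loci without a named product. Per 1000 non-TE loci with the word there were 20.07 members for finger and 17.8 for subunit. There were 6.86 for precursor and 6.98 for F-box. Loci with a named product had 12.07 members per 1000.

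Grouped by description, 160 members fell in at least 1 of 14 word lists and 184 in none. The transcription factor list held 31 members (9.01%, against 4.86% of 1-model loci, and 15.3 per 1000 non-TE loci). Such shares count loci without a named product, which made up 19.2% of members and 45.2% of 1-model loci. Loci with a named product had 12.07 members per 1000, the closer comparison for the rates of lists of named products. The name of the transcription factor list covers more than DNA-binding regulators. Zinc finger stood in the description of 16, of which 6 were C3HC4 or RING types, usually ubiquitin ligases, and 1 member, LOC_Os01g32660, was a MAP2K kinase caught by the letters of AP2 (this locus was named after its values were seen). The other 14 had neither zinc finger nor kinase in the description, and 4 of the 16 were C2H2 zinc fingers.

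Among C2H2 proteins, the class that also contains *ART1*, ZOS4-11 (LOC_Os04g47860) had 8 models with 5′ ends within 111 bp and 3′ ends spread over 5147 bp. The 4 C2H2 members came from 177 non-TE loci with C2H2 in the description (22.6 per 1000), and a count of 4 is small. LOC_Os01g52110, a RING and CHY zinc finger protein, had 8 models whose 5′ ends differed by 17 bp and whose 3′ ends were identical. LOC_Os02g36740, a C3HC4 zinc finger protein, had 7 models with differences of 115 and 37 bp. In the list as a whole, median differences were 41 bp at the 5′ end and 37 bp at the 3′ end, and 7 and 11 members exceeded 1000 bp.

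The kinase list, by the word kinase, held 24 members (6.98% against 3.84% of 1-model loci, and 14.8 per 1000 non-TE loci). It is not only protein kinases, since 3 of the 24 were amino acid, GHMP or phosphatidylinositol kinases. Another 5 were CAMK kinases, the class that includes calcium-dependent kinases. Those 5 came from 95 non-TE loci with CAMK in the description (52.6 per 1000), and a count of 5 is small. LOC_Os07g42940 (CAMK_like.7) had 9 models and a 5′ difference of 2209 bp. LOC_Os03g20380, a CAMK of the KIN1/SNF1 type, had 8 models with 5′ and 3′ differences of 867 and 1 bp. OsWAK4 (LOC_Os01g20900), a receptor-like cytoplasmic kinase of the wall-associated family, had 7 models, 1 shared 5′ end and a 3′ difference of 3418 bp. Across the 24 the median difference was 823 bp at the 5′ end and 1.5 bp at the 3′ end, and 10 exceeded 1000 bp at the 5′ end and 6 at the 3′ end.

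Transporters, which matter in Al resistance because roots release organic acids and sequester Al in vacuoles, held 13 members (3.78% against 1.84% of 1-model loci, and 16.4 per 1000 non-TE loci). In 8 of the 13 all models shared the 3′ end, and the median 5′ difference was 523 bp. Beside the citrate transporters and LOC_Os12g39420 came LOC_Os03g43720, a transporter family protein with 7 models and differences of 528 and 1384 bp. The difference exceeded 1000 bp in 5 of the 13 at the 5′ end and in 4 at the 3′ end.

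The light and clock list took in 73 non-TE loci, of which 5 were members (68.5 per 1000), or 1.45% of members and 0.168% of 1-model loci. It was made by words such as phytochrome, circadian, CCT and response regulator. Its name may therefore cover more than proteins that perceive light or keep daily time. Response regulator receiver proteins made up 15 of the 73 loci and 2 of the 5 members, and which of them act in light or clock responses was not examined. LOC_Os03g56950, a phytochrome-interacting factor 4, had 7 models with differences of 95 and 584 bp. LOC_Os02g49230, a CCT/B-box zinc finger protein, had 6 models with differences of 41 and 507 bp. LOC_Os03g17570, a response regulator receiver protein, had 6 models, 1 shared 3′ end and a 5′ difference of 34 bp. The 5′ difference was at or below 1000 bp in each of the 5. A count of 5 is small, and its share changes by much with each locus.

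Splicing and RNA-binding proteins, which act on other transcripts, held 5 members (1.45% against 0.710% of 1-model loci, and 13.6 per 1000 non-TE loci). LOC_Os06g08840, with an RNA recognition motif, had 8 models with differences of 8 and 27 bp. LOC_Os07g47630 had 7 models, 1 shared 3′ end and a 5′ difference of 283 bp, and LOC_Os02g48340 had 5 models, 1 shared 5′ end and a 3′ difference of 1239 bp. In 4 of the 5 members the 3′ ends lay within 1000 bp, and in each of them the 5′ ends did.

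The ubiquitin pathway and F-box list held 10 members (2.91% against 2.59%). Beside OsFBO21 it held OsFBX61 (LOC_Os02g52130), an F-box protein with 9 models, identical 5′ ends and a 3′ difference of 45 bp. Protein phosphatases held 3 members (0.872% against 0.667%), led by LOC_Os07g10690, an NLI interacting factor-like phosphatase with 7 models that each had their own pair of start and stop. For these lists the shares in members and in 1-model loci lay within 1.5 times of each other. Their rates, 9.77 and 9.06 per 1000 non-TE loci, were below the 12.07 of loci with a named product, on counts of 10 and 3.

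Other lists held few members. Per 1000 non-TE loci the rates were 2.86 for cytochrome P450, 0 for peroxidases and 5.33 for NBS-LRR immune receptors. They were 5.26 for ribosomal proteins and 4.61 for chromatin proteins. Each was below the 8.81 of all non-TE loci and the 12.07 of loci with a named product. The counts, from 0 to 2, are small, and these differences were not tested. Cytochrome P450 oxidases had 1 member of 350 non-TE loci (LOC_Os02g07680, 5 models, 3′ difference 4201 bp). Peroxidases had 0 of 160. NBS-LRR immune receptors had 2 of 375, of which LOC_Os06g49380 had 6 models with identical ends of 6829 bp and LOC_Os12g39620 had 5 models with 5 different 5′ ends. Ribosomal proteins had 2 of 380 (L13, LOC_Os06g02510, and S5 of the 40S subunit, LOC_Os11g29190), and in both all 5 models had the same start and stop. Chromatin proteins had 1 of 217, the bromodomain protein LOC_Os02g38980, with 5 models and a 3′ difference of 2890 bp.

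**Figure D5:**
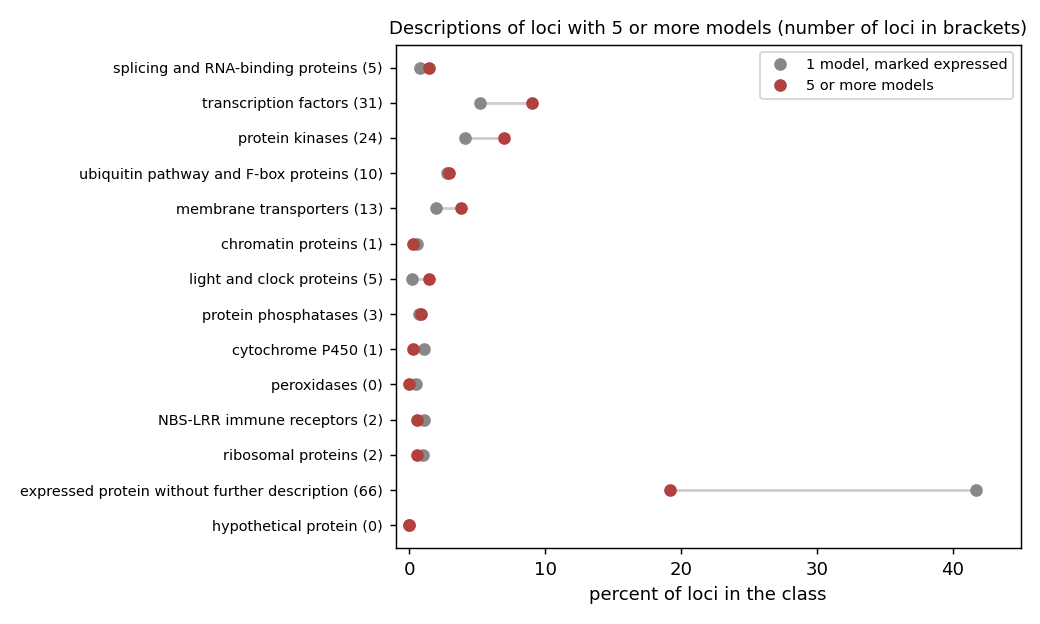
Percent of loci (horizontal axis) with descriptions in each of 14 word lists (vertical axis), for members and for 1-model loci marked as expressed, with the number of members in brackets. Transcription factors reach 9.01% of members and loci described only as expressed protein 19.2%, against 5.18% and 41.8% of the 1-model loci.

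Some small families contributed more than 1 member. Citrate transporter stood in the description of 4 non-TE loci, with 13, 6, 3 and 1 models. Periplasmic beta-glucosidase precursors, enzymes that release glucose from cell wall and storage molecules, had 3 members of 6 loci. LOC_Os03g53800 and LOC_Os03g53860, both on chromosome 3 and not adjacent, had 5 models each and shared 3′ ends, with 5′ differences of 1977 and 1484 bp, and LOC_Os01g56510 had 5 models with identical ends (these 3 were picked after their values were seen). Sucrose synthase, which splits sucrose for growth and cell walls, had 7 loci with 8, 5, 3, 2, 1, 1 and 1 models. In these 3 families, loci with 1 model stood beside loci with at least 5. Other small families held no 1-model locus, such as RCD1 with 7, 6, 2 and 2 models and smr domain proteins with 6, 6 and 3 (these 2 families were picked after their values were seen).

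Of the genes the study discussed in connection with Al, 37 were found in the annotation and 0 were members. Since 0.881% of non-TE loci were members, a list of this size is too short to read anything from a count of 0. Of the 37, 33 (89.2%) had 1 model, beside 84.0% of all non-TE loci. The 33 included the transcription factor *ART1* (LOC_Os12g07280) at the *Alt12.1* QTL, the transporter subunits *STAR1* and *STAR2*, the vacuolar transporter *ALS1*, the plasma membrane Al transporter *Nrat1* and the citrate exporter *OsFRDL4*. Another 3 had 2 models (LOC_Os12g07290, LOC_Os12g07300 and LOC_Os12g38270), and LOC_Os04g01690 had 3. The 2 citrate transporter members are other loci than *OsFRDL4*.

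The members nearest to *ART1* lay far outside the fine-mapped region, but each lay inside the larger introgressed segment of 1 near-isogenic line. By the segment positions the study gives, LOC_Os12g08260 is in the IR64 segment of AZU[IR64121]. LOC_Os12g04990 is in the Azucena segment of IR64[AZU12.1]. On the left, LOC_Os12g04990, an acyl-CoA synthetase with 5 models, 1 shared 5′ end and a 3′ difference of 3150 bp, was 1410 kb away with 215 loci between. On the right, LOC_Os12g08260, a dehydrogenase E1 component with 7 models and 1 shared 3′ end, was 626 kb away with 95 loci between. The 6 loci of the fine-mapped region had 1 or 2 models each.

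Members were adjacent on a chromosome in 4 pairs, and in 0 of them was the description shared. With 344 members among 55986 loci, whether 4 pairs is few or many was not tested. At 627 bp apart, LOC_Os03g16120 (myosin heavy chain-related) and LOC_Os03g16130 (a CAMK kinase) were on the same strand, with 5 and 6 models. LOC_Os01g61710 (coatomer subunit delta, 6 models) and LOC_Os01g61720 (an IQ calmodulin-binding protein, 9 models) lay 840 bp apart on the same strand, and LOC_Os02g12870 and LOC_Os02g12880 3530 bp apart. The fourth pair, LOC_Os03g12890 (an aminotransferase) and LOC_Os03g12900 (a squalene monooxygenase of sterol synthesis), lay on opposite strands and overlapped by 880 bp.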

How the data were processed

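RNA-seq libraries came from rice roots. According to the study's methods, reads were aligned to MSUv.7 and counted per gene, and how reads shared by several models of a locus were treated is not given in the sources used here. The deposited file is the MSUv.7 annotation the authors used, with 66338 gene models given by positions in bp (start and stop), strand, description and marks for TE, expressed and representative. It has 0 columns of a single library, so depth is not known from it and no test was run.

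A locus was measured between the outermost positions of its models. Descriptions were searched with 14 word lists. Named loci were those with most models, the longest and shortest, those with the widest end differences or with identical ends, up to 3 per list with most models, neighbours, and the study's genes. Others are named as picked after their values were seen. The members and lists were chosen with earlier results of these data known, and the clusters of ends, the models that share no position and the small families were examined after seeing the data. Alternatives were other minimum numbers of models, other definitions of length, expressed mark and end difference, and other comparison loci. A RefSeq table of another assembly matched 0 of 344 members and was not used, and no sequence was used here. The scripts, in Python 3.11.15 with numpy 2.4.6, pandas 2.3.3 and matplotlib 3.10.9, were tested on simulated data.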

Additional observations from a re-analysis of the deposited data

How the results depend on the processing

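The number of members was 861 with 4 or more models and 159 with 6 or more, and stayed within 1.5 times of 344 when loci with any TE-marked model or unplaced sequences were left out. The median difference of 5′ ends among the models of a member was 54 bp. It was 2 bp for the median pair of models of a locus, 3 bp without the most extreme model and 107 bp with 6 or more models. The median difference of 3′ ends was 18 bp. It was 0 bp for the median pair, 0 bp without the most extreme model and 65 bp with 6 or more models. The expressed mark of 1-model loci rose from 92.3% to 98.2% without loci described only as expressed or hypothetical protein. The other alternatives of main results moved no value by over 1.5 times, median lengths included. Among 1-model loci, the share of each of the 14 lists changed when only those marked as expressed were counted. It went from 4.86% to 5.18% for transcription factors, from 0.975% to 1.05% for cytochrome P450 and from 7.11% to 0% for hypothetical protein. With 4 or more models, rates rose on all 12 chromosomes, and a lower minimum can only keep or raise them. No paired analysis was possible because no library has a value in the deposited annotation. The annotation is 1 version of a full list of loci, with no replicates, so differences between classes have no error here. The evidence behind each model is not in the file and was not examined.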

Other observations

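A further 9 loci had 5 or more models and a representative model marked as TE, and they were left out of the members. They had 5 or 6 models, spanned 1267 to 14198 bp and all carried the expressed mark. In 8 of them the description named a transposon or retrotransposon, and LOC_Os01g68320 was described as a DEAD-box RNA helicase 30, with 5 models over 4900 bp. In 3 of the 9 all models had the same start and stop. The widest difference of ends was 7860 bp at the 5′ end of LOC_Os07g14514, a retrotransposon protein with 6 models.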
